A study of Bombyx mori with 3 samples.

Results

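A total of 32 of the 16880 genes counted in the silk gland libraries formed a V-shaped set, abundant in the late embryo and at the first larval molt and low on the first day of the first instar between them. The study profiled single cells of silk glands from Bombyx mori, the domestic silkworm, of the Nistari strain at 3 stages: embryos 8 days after egg laying (E8D), larvae 1 day into their first instar (1L1D), and larvae that were molting for the first time (1LM). Each stage was 1 library, made from about 2000 pooled glands. The study describes animals reared under standard laboratory conditions and names no treatment. The sample labels carry the term In vitro expansion, whereas the protocols describe glands dissociated straight from animals, and the protocols are followed here. With 1 library per stage there is no test between stages, stage and library cannot be told apart, and every interval below covers counting error only. Levels are counts of unique molecular identifiers (UMIs, one per captured RNA molecule) summed over the barcodes of a library with at most 30% mitochondrial UMIs, per 1000000 UMIs (CPM).

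The members were chosen from these same levels. A gene had to reach 30 CPM in both E8D and 1LM, to lie at least 4-fold below each of them at 1L1D, and to differ less than 8-fold between E8D and 1LM. Cuticle protein, Osiris, serpin and UDP-glycosyltransferase families and several ecdysone response genes were left out by name, which removed 2 further genes, Br-c and Grf. The low level at 1L1D is therefore the criterion of choice and not a result, and only its size, its spread among cells and the identity of the genes are described.

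The silk gland is a paired larval organ whose posterior part secretes fibroin and whose middle part secretes sericin. Its cells stop dividing in the embryo and then grow by copying their DNA without division. Silk is already spun by the newly hatched larva, and each larval molt is an episode of raised ecdysone in which feeding and spinning pause. Late embryos form a larval cuticle before hatching, as larvae do at a molt.

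The kept barcodes numbered 5073, 4708, and 7506 at E8D, 1L1D, and 1LM, with 12389165, 30837946, and 16568963 UMIs. The 1L1D library stood apart in depth, with a mean of 6550 UMIs per kept barcode against 2442 at E8D and 2207 at 1LM. It also lost the most barcodes to the mitochondrial limit, 1292 against 278 and 7. The silk protein genes took 9.67% of its UMIs, against 0.295% at E8D and 3.20% at 1LM, so the defining products of the silk gland were detected at all stages. Any pair of libraries shared 10 to 12 barcode sequences.

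In all, 2009 genes could have been members by their levels at E8D and 1LM, and the 32 members were 1.59% of these. The rule used this contrast, so nothing is read from that share. The opposite pattern, at least 4-fold higher at 1L1D than at both other stages, was met by 7 genes (0.348%). Each contrast alone was met by 99 genes (4.93%) for E8D and 154 genes (7.67%) for 1LM. The 2009 genes leaned the same way as the members: 1470 (73.2%) were lower at 1L1D than at both by some amount and 184 (9.16%) were higher, with a median log2 ratio of 0.64 for E8D over 1L1D and 0.98 for 1LM over 1L1D. For the members the medians were 2.62 and 2.90. The members' CPM summed to 5498 at E8D, 548 at 1L1D, and 5910 at 1LM.

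**Figure D1:**
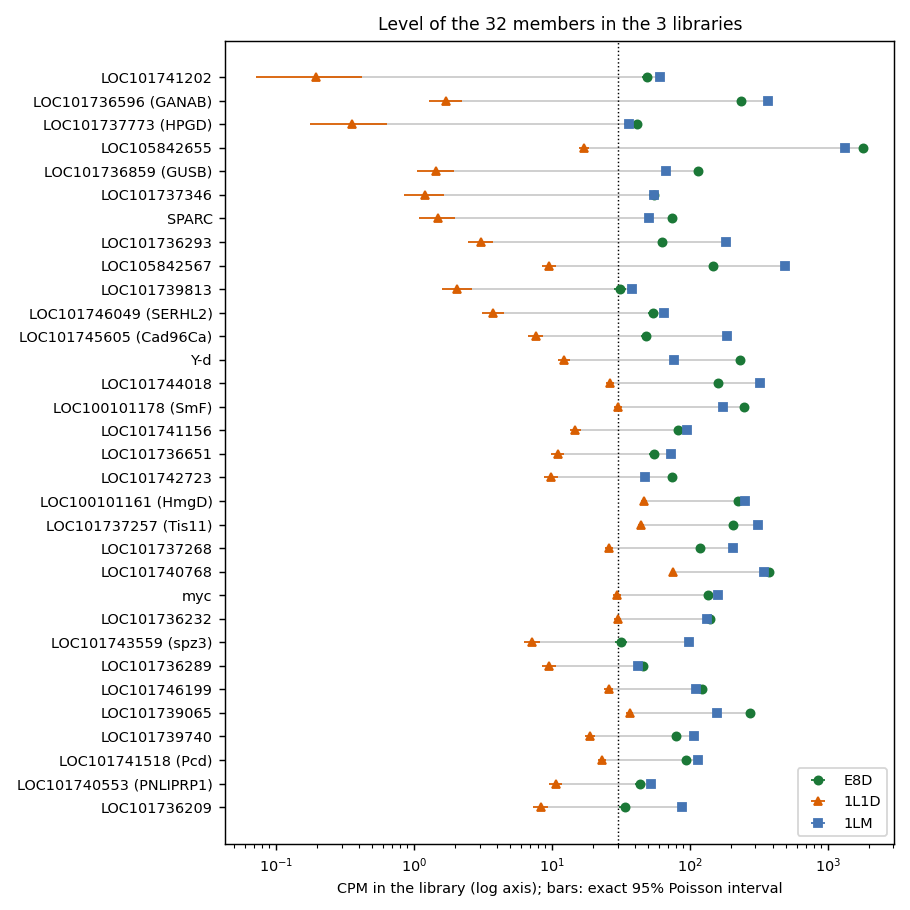
Level of each of the 32 members in the E8D, 1L1D, and 1LM libraries, in CPM on a log axis with exact 95% Poisson intervals, ordered by the smaller of the 2 folds and with the study's symbol in parentheses. The dotted line marks the limit of 30 CPM. At 1L1D 15 members lay below 10 CPM and 6 below 2 CPM. The E8D and 1LM levels, which the rule held less than 8-fold apart, lay close together for most genes.

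A group of 6 members was nearly absent at 1L1D, below 2 CPM. LOC101741202, a protein-coding gene without a description in the sources used here, had 48.7 CPM at E8D, 0.195 CPM at 1L1D, and 60.5 CPM at 1LM. The 1L1D value rested on 6 UMIs among the 30837946 of the library, and the log2 ratios were 7.97 (95% interval 6.84 to 9.42) for E8D and 8.28 (7.15 to 9.73) for 1LM over 1L1D. It was the member with the widest gap. LOC101736596, with the symbol GANAB, had 234 CPM at E8D, 1.72 CPM at 1L1D, and 369 CPM at 1LM. GANAB is the catalytic subunit of glucosidase II in mammals, which trims glucose from N-glycans in the endoplasmic reticulum, but the description paired with this gene reads only uncharacterized. A second gene with the same symbol, LOC101739156, was not a member and had 77.2, 41.6, and 91.9 CPM at E8D, 1L1D, and 1LM.

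LOC101737773 carries the description 15-hydroxyprostaglandin dehydrogenase (HPGD), an enzyme that inactivates prostaglandins in mammals. Its level was 41.6 CPM at E8D, 0.357 CPM at 1L1D, where it had 11 UMIs, and 36.0 CPM at 1LM. A second HPGD gene, LOC101735322, missed the limits with 369, 95.2, and 301 CPM. The other HPGD genes were scarce in all libraries, LOC101737635 with 11, 0, and 16 UMIs and LOC101742233 with 0, 2, and 48 UMIs at E8D, 1L1D, and 1LM.

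LOC101736859, a beta-glucuronidase (GUSB), which is a lysosomal hydrolase of glucuronic acid residues in mammals, had 115 CPM at E8D, 1.46 CPM at 1L1D, and 67.9 CPM at 1LM. LOC101737346, a protein-coding gene without a description, had 55.1, 1.20, and 55.5 CPM. For this gene the outer stages were equal within their counting error, with a log2 ratio of 0.01 (-0.14 to 0.15) for 1LM over E8D.

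SPARC encodes a collagen-binding glycoprotein of basement membranes, which in Drosophila is made chiefly by haemocytes and the fat body. It had 74.8 CPM at E8D, 1.49 CPM at 1L1D, and 50.8 CPM at 1LM. At 1LM only 4.89% of kept barcodes had a SPARC UMI, and 1 barcode held 77 of its 841 UMIs. Type IV collagen genes did not follow it at E8D but were present at 1LM. Let-2 had 1, 0, and 251 UMIs and collagen alpha-2(IV) 0, 1, and 207 UMIs at E8D, 1L1D, and 1LM. Laminin alpha had 0, 2, and 47 UMIs and laminin beta 2, 7, and 77. The haemocyte list of 2 genes summed to 13.5, 34.7, and 2.29 CPM and the fat body list of 10 genes to 780, 1104, and 1670 CPM. Neither list was lowest at 1L1D, but only 0 haemocyte genes and 1 fat body gene could have been members. Whether SPARC UMIs came from such tissue was not tested. Muscle and neuron lists, of 1 and 10 genes, summed to 35.7, 39.1, and 48.2 CPM and to 339, 274, and 680 CPM. The neuron list was thus lowest at 1L1D.

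The most abundant member, LOC105842655, was described as uncharacterized and had 1811 CPM at E8D, 17.1 CPM at 1L1D, and 1339 CPM at 1LM. Its log2 ratios to 1L1D were 6.73 (6.60 to 6.85) and 6.29 (6.17 to 6.42). No other member reached 500 CPM in any library. Without it the members' CPM still summed to 3687, 531, and 4571.

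Both members annotated as long non-coding RNAs were among the 9 widest gaps and were highest at the molt. LOC105842567 had 147 CPM at E8D, 9.60 CPM at 1L1D, and 489 CPM at 1LM, and LOC101736293 had 63.1, 3.08, and 184 CPM. Non-coding genes made up 2 of 32 members (6.25%) and 24 of the 2009 genes that could have been members (1.19%). The other 30 members were protein-coding.

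The next members by gap were LOC101739813, without a description, at 31.2, 2.08, and 38.1 CPM, and LOC101746049 at 54.2, 3.76, and 65.2 CPM for E8D, 1L1D, and 1LM. The latter was described as a serine hydrolase-like protein (SERHL2). With these, 11 members had a smaller fold of at least 8, whereas 16 lay under 5.

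**Figure D2:**
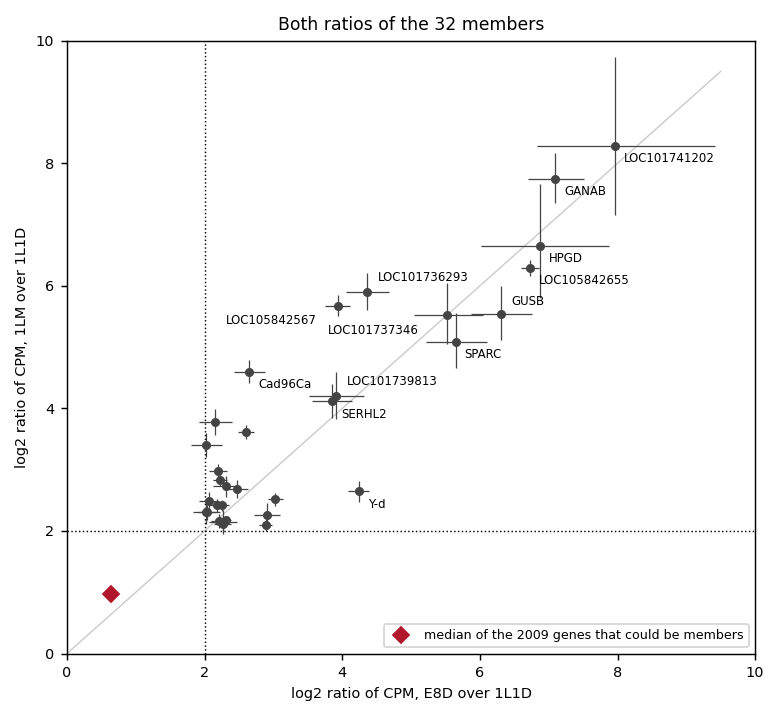
Log2 ratio of CPM of E8D over 1L1D (horizontal) and of 1LM over 1L1D (vertical) for the 32 members, with exact 95% binomial intervals. Dotted lines mark the 4-fold limit, the grey diagonal marks equal ratios, and the diamond is the median of the 2009 genes that could be members, at 0.64 and 0.98; the 2 non-coding RNAs and Cad96Ca lie above the diagonal and Y-d below it.

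The remaining members were lower at 1L1D but still present. The bHLH transcription factor gene myc, which drives cell growth and ribosome production in Drosophila, had 135 CPM at E8D, 29.9 CPM at 1L1D, and 160 CPM at 1LM. LOC101737257 encodes TIS11, a zinc finger protein that binds AU-rich elements and promotes decay of the mRNA in Drosophila and mammals. Its level was 207, 44.3, and 314 CPM. LOC100101161 (HmgD), a DNA-bending HMG-box protein of chromatin, had 224, 46.9, and 250 CPM.

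LOC100101178 encodes SmF, one of the Sm proteins that form the ring of the spliceosomal snRNPs, and had 247 CPM at E8D, 30.3 CPM at 1L1D, and 173 CPM at 1LM. The Sm genes SmB, SmD2, SmE, and SmG were gathered after these values had been seen. All 5 of these Sm genes were at least 4-fold lower at 1L1D than at E8D (4.33-fold to 8.14-fold). Only SmF was also 4-fold lower than at 1LM, where the folds ran from 2.22 to 5.72. Of the 2009 genes 99 (4.93%) met that limit against E8D and 154 (7.67%) against 1LM. Of 8 nucleolar protein genes gathered in the same way none was a member and 6 were at least 2-fold below both other stages, a level that 461 of the 2009 genes met (22.9%). The nearest of these to the set was fibrillarin, the rRNA methyltransferase, with 316, 83.0, and 350 CPM and a smaller fold of 3.81.

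Signalling and receptor genes were represented by LOC101743559 (spz3), a member of the spaetzle family of Toll ligands in Drosophila, and LOC101745605. The latter bore the symbol Cad96Ca, a receptor tyrosine kinase of Drosophila, with a description as an ephrin receptor. The level of spz3 was 31.9 CPM at E8D, 7.17 CPM at 1L1D, and 98.2 CPM at 1LM, and that of Cad96Ca was 47.9, 7.65, and 185 CPM. Both were low in the embryo among members and 3.08-fold and 3.87-fold higher at the molt.

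Among genes of metabolism, Y-d encodes yellow-d, of an insect family that includes the cuticle pigmentation gene yellow. It had 231 CPM at E8D, 12.3 CPM at 1L1D, and 76.6 CPM at 1LM and was the only member at least 2-fold higher at E8D than at 1LM in CPM. LOC101741518 (Pcd), a pterin-4-alpha-carbinolamine dehydratase that recycles the pterin cofactor of aromatic amino acid hydroxylases, had 94.8, 23.2, and 114 CPM. LOC101740553, described as an inactive pancreatic lipase-related protein, had 43.6, 10.7, and 52.8 CPM.

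Several abundant members had no informative description. LOC101740768, described as uncharacterized, had 374 CPM at E8D, 75.7 CPM at 1L1D, and 343 CPM at 1LM, the highest level of any member at 1L1D. LOC101744018 had 161, 26.6, and 325 CPM and LOC101739065 had 272, 36.7, and 157 CPM. These showed both orders of the outer stages, the first of the pair higher at 1LM and the second at E8D. The 9 members not yet named, LOC101741156, LOC101739740, LOC101736651, LOC101742723, LOC101736289, LOC101736232, LOC101737268, LOC101746199, and LOC101736209, were protein-coding genes without a description, at 33.7 to 139 CPM in E8D, 8.30 to 30.0 CPM in 1L1D, and 42.4 to 205 CPM in 1LM. Their smaller folds ran from 4.06 to 5.56, at the narrow end of the set.

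The rule held the outer stages less than 8-fold apart, and in the plot of levels they lay close together for most members. The log2 ratio of 1LM over E8D had a median of 0.25 for the members and 0.27 for all 2009 genes. Of the 32 members 25 lay within 2-fold of equality, 6 were at least 2-fold higher at 1LM, and 1 at E8D. The same was not counted over the 2009 genes, so nothing is read from these counts. By the counting intervals 19 were higher at 1LM, 10 were higher at E8D, and 3 could not be ordered. This order depended on the scale: with TMM factors the median log2 ratio was -0.60 and 6 members were higher at 1LM, and with DESeq2 size factors it was -0.68 and again 6. The highest ratios of E8D over 1LM belonged to Y-d, LOC101739065, and GUSB, and the lowest to Cad96Ca, LOC105842567, and spz3.

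The limit of 4-fold cut through a continuum. The members nearest inside it were LOC101736209, LOC101740553, and LOC101741518, with smaller folds of 4.06, 4.07, and 4.10. The genes nearest outside were LOC101739990, LOC101743821, and fibrillarin, with 3.92, 3.90, and 3.81. For 8 members the counting interval of a ratio reached below 4-fold.

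The study's annotation reached 16 of the 32 members and 889 of the 2009 genes (44.3%). By a search for words in the descriptions 3 of 99 uncharacterized genes, 1 of 38 genes of RNA binding, splicing and decay (SmF), 1 of 13 of lipid metabolism (LOC101740553), and 2 of 24 long non-coding RNAs were members. The same search found no member among 80 cytoplasmic ribosomal protein genes, 62 mitochondrial genes of the nucleus, 24 chaperone genes, 14 chromatin genes, 25 kinase and phosphatase genes, and 22 transcription factor genes. It missed members whose descriptions lack the words searched: myc (transcription factors), Cad96Ca (kinases), HmgD (chromatin), and TIS11 (RNA decay), so these counts are of the search and not of the functions. The ribosomal genes were slightly higher at 1L1D, with median log2 ratios of -0.34 for E8D and -0.30 for 1LM over 1L1D. The 31 members placed on the later assembly lay on 17 chromosomes, with at most 4 on one, and no pair lay within 5 genes of each other.

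Shares of barcodes with a UMI were compared at equal depth, in the same barcodes that chose the members. Thinning every barcode to 1000 UMIs used 1655, 4708, and 5763 barcodes of E8D, 1L1D, and 1LM and left out 3418, 0, and 1743 shallower ones. The median share over members was then 8.37% at E8D, 0.988% at 1L1D, and 10.2% at 1LM, and 1L1D was lowest for 32 of 32 members and for 73.3% of the 2009 genes. Before thinning the medians were 10.5%, 5.69%, and 18.1%, and 1L1D was lowest for 29 members and for 4.53% of the 2009 genes. No cell type that should lack these genes was known, so no background share from free RNA stands beside these values.

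LOC105842655 was carried by 68.4% (Clopper-Pearson 95% interval 66.1 to 70.6) of thinned barcodes at E8D, 1.30% (0.992 to 1.66) at 1L1D, and 58.9% (57.7 to 60.2) at 1LM. LOC101736596 was carried by 19.6%, 0.149%, and 29.6%. Thus most thinned barcodes of the outer libraries held a UMI of LOC105842655, and a minority held one of LOC101736596. How much of these shares was free RNA was not tested. LOC101741202 was found in 2.84% and 4.86% of thinned barcodes at E8D and 1LM and in 0 of 4708 at 1L1D, which allows up to 0.0783% of barcodes with a UMI at the thinned depth. In the same barcodes at full depth, 0.106% had a UMI.

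The low level was present in every depth bin of the 1L1D library. When the kept barcodes of each library were divided by their UMIs into 4 bins of equal size, the members' CPM summed to 4968 to 5679 in the bins of E8D, 533 to 613 at 1L1D, and 5436 to 6245 at 1LM. In every bin 1L1D lay below both other stages for all 32 members, and by at least 4-fold for 25, 19, 21, and 30 of them from the shallowest to the deepest bin. The bins divide the same UMIs that chose the members, so nothing is read from these counts. Bins of the same rank also differed in depth between libraries. The shallowest had medians of 541, 1210, and 906 UMIs at E8D, 1L1D, and 1LM, and the deepest 2696, 16050, and 3739. Of the 2009 genes, 71.7%, 69.7%, 64.5%, and 73.1% were below both in the respective bins and 3.73%, 2.49%, 1.59%, and 1.89% by at least 4-fold. LOC105842655 ranged from 11.6 to 18.4 CPM among the bins of 1L1D and from 1733 to 2303 CPM among those of E8D.

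**Figure D3:**
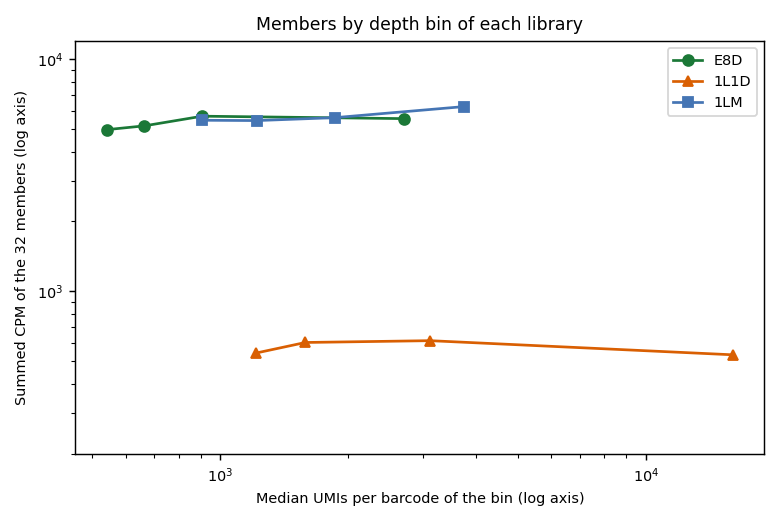
Summed CPM of the 32 members (log axis) in 4 depth bins of the kept barcodes of each library, against the bin's median UMIs per barcode (log axis). The 1L1D bins lie at 533 to 613 CPM over median depths of 1210 to 16050 UMIs. The E8D and 1LM bins lie at 4968 CPM or above, over median depths of 541 to 2696 and 906 to 3739 UMIs.

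The barcodes above the mitochondrial limit, which the choice of members did not use, were also lowest at 1L1D in the members' summed CPM. The members' summed CPM was 3255 in the 278 such barcodes of E8D, 378 in the 1292 of 1L1D, and 3516 in the 7 of 1LM. They came from the same 3 libraries and are no replicate. The 1LM sum rested on 34 member UMIs among 9670, and 14 members had no UMI there. Sums or shares for the other genes were not computed in these barcodes, so nothing is read from the order of the sums. In the 1L1D barcodes 29 members still had UMIs, and LOC101741202, LOC101737346, and LOC101737773 had none.

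To place the members among the cells, barcodes were grouped by the 5 leading markers that the study chose on these libraries for each of its cell types, at 3 or more UMIs over 2 or more of the genes. A barcode could belong to several groups, and such groups were compared where they held at least 50 barcodes. They comprised cells synthesizing fibroin (FPS) and sericin (SPS), catabolizing fibroin (FPC) and sericin (SPC), liquid silk fibrosis cells (LSF), endoplasmic reticulum stress signalling cells (ERSS), traction cells (TR), epithelial remodelling cells (ECR), chitin metabolism cells (CM), and the regulatory type of the posterior gland (DRR). The groups are only as distinct as their markers: the FPS list took 66.6% of kept barcodes at E8D and the DRR list 87.2% at 1LM. A need for 3 UMIs also favours deep barcodes. Every compared group except DRR at 1LM had a higher median depth than the other barcodes of its library. The SPC group of 1L1D had a median of 35705 UMIs against 1991, and the SPS group of E8D 6507 against 735. Group and depth are therefore not separated in these contrasts.

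Every group of 1L1D was low. The members' CPM summed to 480 to 722 in the 6 groups of 1L1D, 4025 to 6805 in the 4 groups of E8D, and 4676 to 7224 in the 7 groups of 1LM. LOC105842655 alone gave 2716 of the 6805 CPM in the ERSS barcodes of E8D. For 26 of the 32 members the highest group at 1L1D lay below the lowest group of either other stage. The same was not counted over the 2009 genes, so nothing is read from this number. Within FPS barcodes all 32 members were lower at 1L1D than at E8D and 1LM, 28 of them by at least 4-fold, as were 73.7% and 2.49% of the 2009 genes. Within SPS barcodes all 32 were again lower, 19 by at least 4-fold, against 65% and 1.59% of the 2009 genes. These barcodes are part of those that chose the members.

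**Figure D4:**
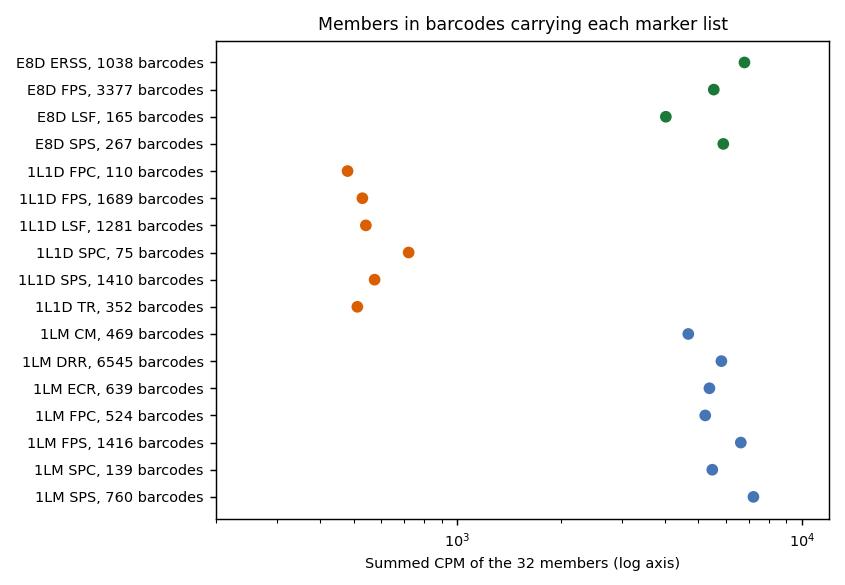
Summed CPM of the 32 members (log axis) in barcodes carrying each marker list, with the number of barcodes. The 6 groups of 1L1D lie at 480 to 722 CPM and all groups of E8D and 1LM lie at 4025 or above, whichever cell type the markers name.

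Individual members differed among the groups far more than their sum. Y-d, GUSB, LOC101740553, and HPGD were higher in groups that the study placed in the middle gland (SPS, ERSS, and SPC) than in the remaining barcodes at both outer stages. At E8D these genes had 424, 204, 84.8, and 73.7 CPM in SPS barcodes, against 149, 77.2, 26.1, and 28.1 CPM in the others. In the ERSS barcodes of E8D, Y-d had 575 CPM and in the other barcodes 60.1 CPM, and HPGD had 106 against 9.67 CPM. The silk protein share at E8D was 0.0947% in ERSS, 0.0916% in SPS, 0.00908% in LSF, and 0.318% in FPS barcodes, against 0.295% in the library. At 1LM, HPGD had 302 CPM in the 139 SPC barcodes against 27.8 CPM in the rest, and LOC101740553 had 334 against 44.1 CPM. GUSB followed with 306 against 60.5 CPM. The rise was not limited to middle gland groups: in the FPC barcodes of 1LM, which the study placed in the posterior gland, HPGD had 124 against 28.0 CPM, LOC101740553 had 108 against 47.8 CPM, and GUSB had 114 against 63.7 CPM.

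Part of this arrangement remained at 1L1D at low level. Y-d had 21.6 CPM in the 1410 SPS barcodes and 1.98 CPM in the others, a log2 ratio of 3.45 (2.90 to 4.05). LOC101740553 had 18.1 against 2.52 CPM. LOC101740553 and Y-d were also higher in the 75 SPC barcodes of 1L1D, at 41.0 and 56.2 CPM, so that for these genes a group of 1L1D exceeded a group of 1LM.

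LOC101741202 had another distribution. At E8D it had 414 CPM in the 165 LSF barcodes and 9.47 CPM in the others, a log2 ratio of 5.45 (5.14 to 5.77), and 0.542 CPM in SPS barcodes. At 1LM its highest level was 168 CPM, in the 639 ECR barcodes. At 1L1D, where 1281 barcodes carried the LSF markers, it had 0.197 CPM in them. At the border of the LSF group, 170 barcodes of E8D had 2 or 3 UMIs of its list.

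TIS11 and Cad96Ca shared the ECR group at the molt, with 1050 and 670 CPM there against 234 and 133 CPM in the other barcodes. LOC101740768, LOC101739813, and Pcd were highest in the 469 CM barcodes of 1LM, at 760, 120, and 359 CPM against 297, 28.9, and 86.9 CPM elsewhere. SPARC had 7.90 CPM in SPS barcodes of 1LM and 63.5 CPM in the rest, and at E8D 7.50 CPM in LSF barcodes and 82.0 CPM in the rest. The molt-associated groups held some members at high level and others at low level. In ECR barcodes 7 members were at least 2-fold higher and 16 at least 2-fold lower than in the other barcodes. How the remaining genes divided in ECR barcodes was not counted, so nothing is read from these numbers.

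The size of the gap depended on the scale. Per kept barcode, which does not fix the sum of all genes, 1L1D was lower than both other stages for 32 of 32 members, with median log2 ratios of 1.20 to E8D and 1.33 to 1LM, and 15 members were at least 2-fold below both. Of the 2009 genes 5.87% were below both on this scale and 0.747% by at least 2-fold. On that scale the 2009 genes had medians of -0.78 and -0.59, so most of them were higher at 1L1D. Of the 32 members 11 met the rule under TMM factors and 11 under DESeq2 size factors. Scaling by TMM moved the median log2 ratio of the 2009 genes to 0.35 for E8D and -0.16 for 1LM over 1L1D, and with the silk protein genes removed from the totals 27 members remained.

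**Figure D5:**
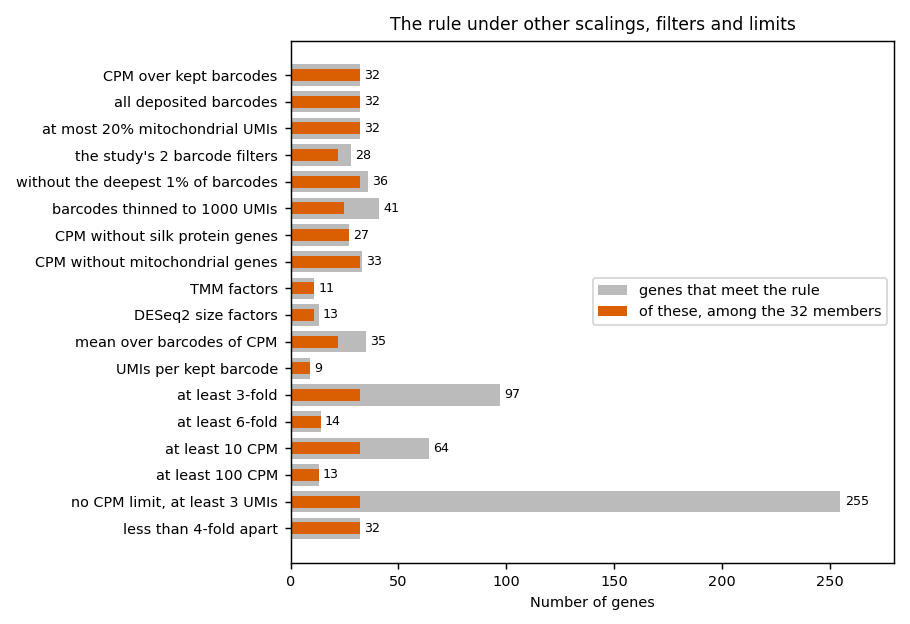
Number of genes that met the rule under each scaling, filter and limit (grey bars) and the number of them among the 32 members (orange bars). Settings that change the barcodes keep 22 or more of the members, whereas TMM and DESeq2 factors keep 11 and UMIs per kept barcode keep 9.

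A core of 9 members met the rule under all 11 other scalings and barcode filters. It comprised LOC105842655, LOC101736596 (GANAB), LOC101741202, GUSB, LOC101737346, SPARC, SERHL2, and both long non-coding RNAs, LOC105842567 and LOC101736293. LOC101737773 (HPGD) and LOC101739813 still passed the 4-fold limit and failed only the limit of 30 on the level under TMM factors, DESeq2 size factors, and UMIs per kept barcode: the smaller fold of HPGD was 45.8, 44.8, and 34.0, with levels at 1LM of 22.7, 22.2, and 21.3. The smaller folds of myc and Y-d fell under 4 on these scales. LOC101739813, unlike HPGD, was also lost under the study's 2 barcode filters and the mean over barcodes of CPM. SmF, TIS11, and HmgD were lost under 5, 6, and 6 of the 11.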

How the data were processed

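The deposited values are whole UMI counts for each gene and barcode, not normalized. The authors obtained them from Cell Ranger 3.1.0 (aligner STAR, assembly ASM15162v1). Libraries were built with the 10x 3' kit from polyadenylated RNA. UMIs were summed over barcodes with at most 30% of UMIs from the 13 mitochondrial genes and divided by the library's total to give CPM. CPM carry exact Poisson intervals, ratios exact binomial and shares Clopper-Pearson intervals at the 95% level, all for counting error only; the limit for a count of 0 is the upper Clopper-Pearson bound. Doublets were not removed. The ratio and rule procedures were tested on simulated data.

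The members and lists were chosen with earlier results of these data known. Genes are named where they were among the 10 widest gaps, the 10 highest levels, the leading members of a function group, the nearest to the 4-fold limit, or the extremes of E8D over 1LM. Values for other genes, the members of the Sm, nucleolar and other families, and the genes described in marker groups were chosen after values were seen. One pattern of a function list matched Pcd by a part of a word and was corrected afterwards. Descriptions and symbols came from the study's supplementary tables, which were held in part, and biotypes from RefSeq for the assembly ASM3026992v2, where 31 members matched. Promoters and proteins were not analysed here.

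Alternatives changed barcode filters, depth, scaling and limits of the rule, with R 4.3.3, edgeR 4.0.16 and DESeq2 1.42.0 for factors, and otherwise Python 3.11.15, numpy 2.4.6, pandas 2.3.3 and scipy 1.17.1.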

Additional observations from a re-analysis of the deposited data

How the results depend on the processing

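All 32 members stayed lower at 1L1D than at E8D and 1LM under each of the 11 scalings and barcode filters tried. These settings reuse the UMIs that chose the members, so nothing is read from that direction. Of the 2009 genes 73.2% were lower than both in CPM and 5.87% per kept barcode. The number of genes meeting the rule was 32, 32, 28, 36, 41, 27, 33, and 35 under the other barcode sets, thinning, totals without silk protein or mitochondrial genes, and the mean over barcodes, but 11 with TMM factors, 13 with DESeq2 size factors (11 of them members), and 9 as UMIs per kept barcode, a scale added after seeing the data. Limits of 3-fold or 6-fold gave 97 or 14 genes, 10 or 100 CPM gave 64 or 13, and no CPM limit with at least 3 UMIs gave 255. The members' median log2 ratio of E8D over 1L1D, 2.62, became 2.34 with TMM factors, 2.38 with DESeq2 size factors, and 1.20 per kept barcode. That of 1LM over 1L1D, 2.90, became 1.76, 1.73, and 1.33 under these, 3.08 under the study's 2 barcode filters, 3.02 after thinning, 2.80 without silk protein genes, and 3.05 as the mean over barcodes. These scalings differ by construction, and why single genes moved was not tested. No paired analysis was possible because each stage had 1 library.

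The 1L1D levels of LOC101741202 and HPGD rested on 6 and 11 UMIs, so their ratios have wide counting intervals. The 1L1D library was the deepest and richest in silk protein UMIs, and stage, library and depth cannot be told apart.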
